A study of Mus musculus with 6 samples.

Results

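Caspases and the Bcl2 family form the core machinery of programmed cell death, and their transcripts were compared here between taste cells of mice aged 2 months and 6 months. The genes were taken from the authors' deposited table by name: every gene whose symbol begins with Casp and a digit or with Bcl2, together with Bax, Bak1, Bok, Bad, Bid, Bik, Bmf, Bbc3, Pmaip1, Mcl1, Hrk, Apaf1, Xiap, Birc2, Birc3 and Diablo, leaving out Casp14. This rule takes 39 of the 23361 genes of the table, of which 37 are described and counted here, and it uses no measured value. Taste cells were isolated with enzymes from the posterior tongue papillae (circumvallate, CV, and foliate, Fol), which hold rows of taste buds, of C57BL/6 mice, for which the labels name no engineered allele. The sample labels give ages of 2 months and 6 months, with 3 libraries at each age, and each library was made from the pooled cells of 4 mice at 2 months and of 3 mice at 6 months. The sex of the mice is not given in the sources used here. The deposited values are FPKM (sequenced fragments of a gene relative to its transcript length and to the library's total), with 1 value per gene and age that covers all 3 pools. No value of a single pool was analysed, so no SD, no test and no p-value accompanies any difference below, and the differences describe these 2 sets of libraries. FPKM carries no sequencing depth, so the depth behind each value is unknown. Where a pair of FPKM values follows a gene, the first is that at 2 months and the second that at 6 months.

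Caspases are proteases made as inactive precursors. Initiator caspases are switched on by assembling on a scaffold, either at a death receptor or on the Apaf1 apoptosome, and they then cleave the executioner caspases that dismantle the cell. The Bcl2 family decides whether the apoptosome forms: its effectors Bax and Bak1 open the outer mitochondrial membrane and release cytochrome c, its pro-survival members hold the effectors back, and its BH3-only members relay stress by binding both. Inhibitor of apoptosis proteins (IAPs) block or ubiquitinate the caspases, and Diablo relieves that block. Taste cells are short-lived and are replaced throughout life, so cell death is a normal part of the tissue.

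Transcripts of most of the machinery were detected in the taste cell preparations, and their levels at 6 months lay close to those at 2 months. Of the 37 genes, 30 (81.1%) had a mean over both ages of at least 1 FPKM and are called expressed here, beside 54.2% of all genes in the table. Differences are given as log2(FPKM + 1) at 6 months less that at 2 months, a scale that understates the change of weakly expressed genes. Of the 30 expressed genes, 0 had a value at least 1.5-fold higher at 6 months on this scale, where 1.05% of all 12652 expressed genes did. Likewise 0 were at least 1.5-fold lower, against 1.72% of all expressed genes. With 30 genes, shares of that size correspond to less than 1 gene, so the counts of 0 do not set the family apart from the rest of the transcriptome. At a smaller limit, a difference of 0.32 on the log2 scale, 1 gene was higher (Bcl2a1b) and 1 was lower (Bbc3), while 2.95% of all expressed genes were higher and 4.23% lower by that limit. The background includes 79 genes listed at 0 FPKM at 1 of the ages, and without them 0.811% of genes were at least 1.5-fold higher and 1.34% lower.

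The differences were small in both directions. The 30 expressed genes were split evenly, with 15 higher and 15 lower at 6 months, and their median log2 difference was 0.0016, beside -0.01 over all expressed genes. The extremes were -0.38 for Bbc3 and 0.35 for Bcl2a1b. A difference of less than 0.1 in either direction was seen for 17 of the 30 genes (56.7%) and for 53.5% of all expressed genes. The median size of the difference, regardless of its sign, was 0.088 for the family and 0.092 for all expressed genes. Across the 30 genes the log2(FPKM + 1) values of the 2 ages had a Pearson correlation of 0.993, and across all 12652 expressed genes it was 0.959. The second correlation includes the 79 genes listed at 0 FPKM at 1 of the ages and was not computed without them. The 2 correlations therefore do not show the family to be more stable than other genes. Both are across genes, which are not independent replicates.

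**Figure D1:**
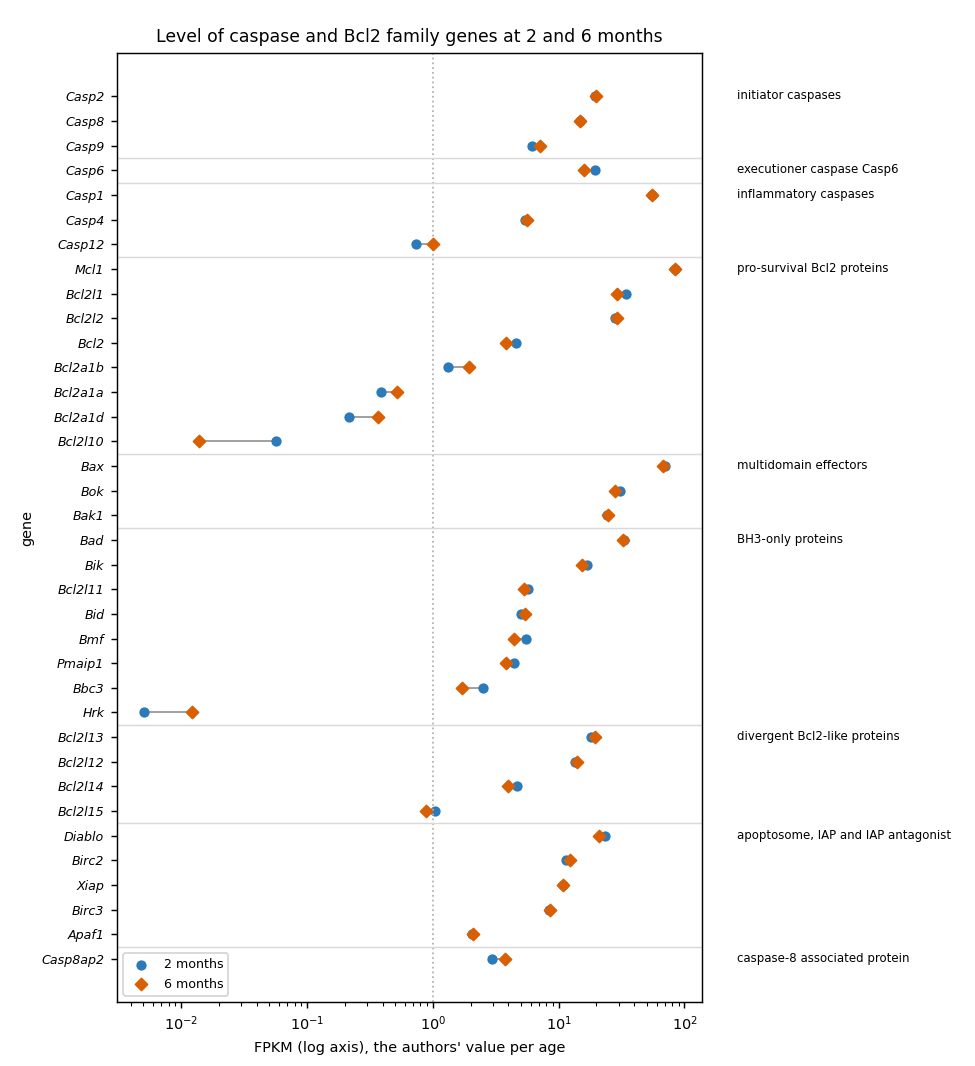
FPKM of each caspase and Bcl2 family gene at 2 months (blue circles) and 6 months (orange diamonds) on a logarithmic axis, grouped by role. Each point is the authors' value for an age over 3 pools, Bcl2a1c is left out because it is listed at 0, and the dotted line marks 1 FPKM. The paired points nearly coincide for most genes above 1 FPKM, and Mcl1, near 84 FPKM, is the highest.

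**Figure D2:**
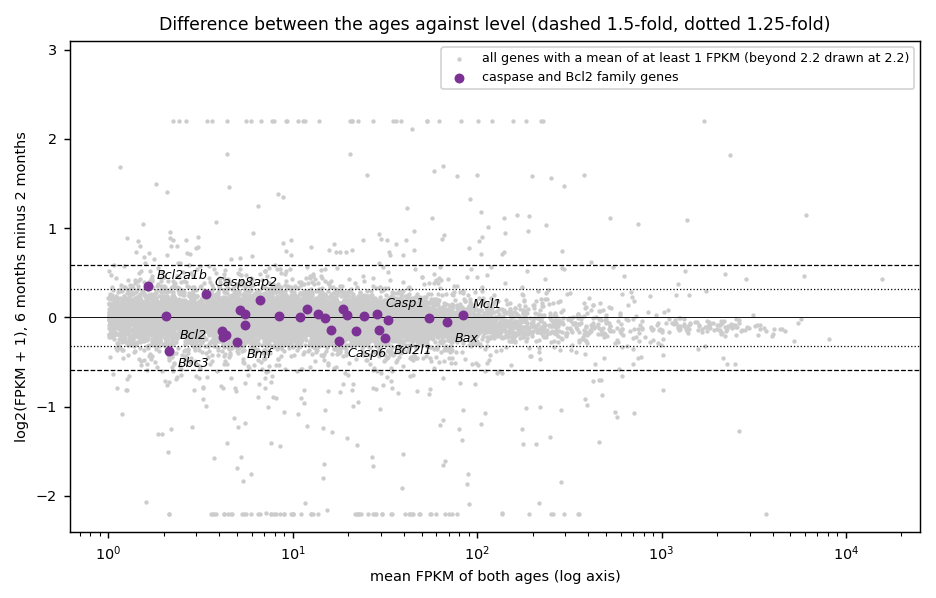
Difference of log2(FPKM + 1), 6 months minus 2 months, against mean FPKM on a logarithmic axis for all 12652 expressed genes (grey) and the 30 expressed family genes (purple). Dashed lines mark 1.5-fold, dotted lines mark a difference of 0.32, and the 104 genes beyond 2.2 are drawn at 2.2. All family genes lie between the dashed lines, and Bbc3 and Bcl2a1b lie outside the dotted ones.

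All 7 caspase genes described here had signal, and 6 of them were expressed. Casp1, the inflammasome protease that matures interleukin-1 beta and interleukin-18, was the most abundant of these caspase transcripts, at 55.1 and 54.9 FPKM. It held 45.4% of the summed FPKM of the 7 at 2 months and 46.0% at 6 months. The level of Casp1 exceeded that of 87.3% of all expressed genes, and its log2 difference was -0.0046. Casp4, which in the mouse encodes caspase-11, a sensor of bacterial lipopolysaccharide inside the cell, was at 5.39 and 5.58 FPKM. Casp12, the third gene of the inflammatory cluster, had a mean under 1 FPKM, with 0.735 and 1.002 FPKM. These 3 genes lie side by side on chromosome 9 of GRCm38, with Casp1 at 5298517 to 5307265, Casp4 at 5308828 to 5336783 and Casp12 at 5345430 to 5373032.

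Among the initiators, Casp2, activated on the PIDDosome after centrosome or DNA damage, had the highest level, at 19.6 and 19.9 FPKM. Casp8, which is recruited to death receptors, was at 14.9 and 14.8 FPKM. Casp9, the caspase of the apoptosome, was at 6.14 and 7.14 FPKM, a log2 difference of 0.19 and the largest of the initiators. Casp6, an executioner that cleaves nuclear lamins, had the largest difference of the 6 expressed caspases, from 19.4 to 16.0 FPKM or -0.26 on the log2 scale, and was thus 0.824 times as high at 6 months. Casp8ap2 shares the name but is no protease: it encodes FLASH, a caspase-8 binding protein known for histone transcript processing. Its value was 2.96 and 3.77 FPKM, a log2 difference of 0.27.

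The levels of the 9 pro-survival genes ran from 0 to that of the most abundant transcript of the family. Mcl1, whose short-lived protein restrains Bak1 and Bim, was this transcript, at 83.5 and 84.7 FPKM, and it held 54.7% and 56.7% of the summed pro-survival FPKM. Bcl2l1, which encodes Bcl-xL, was at 34.3 and 29.0 FPKM, a log2 difference of -0.23. Bcl2l2, which encodes Bcl-w, was at 28.3 and 29.0 FPKM, so Bcl2l1 stood above Bcl2l2 at 2 months and level with it at 6 months. Bcl2, the founder of the family, was weakly expressed at 4.59 and 3.81 FPKM, a log2 difference of -0.22. Per transcript length, Mcl1 was 18.2 times as abundant as Bcl2 at 2 months and 22.2 times at 6 months, and Bcl2l1 was 7.46 and 7.62 times as abundant. Bcl2l10 was near 0, at 0.0571 and 0.0139 FPKM.

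Bcl2a1 encodes A1, a pro-survival protein known mainly from blood cells, and the mouse has several copies of the gene on chromosome 9. Bcl2a1b (89199209 to 89207827 of GRCm38) was at 1.32 and 1.95 FPKM. Bcl2a1a (88956900 to 88962419) was at 0.386 and 0.521 FPKM, and Bcl2a1d (88723285 to 88731914) at 0.215 and 0.370 FPKM. The copy Bcl2a1c was listed at 0 at both ages. All 3 detected copies thus had higher values at 6 months, but they are not separate measurements, since their coding sequences of 516 bases differ at only 12 positions in all. In GENCODE annotation of GRCm38, 69.0% of the 50-base stretches of the Bcl2a1a transcript also occur in a transcript of another gene, and the shares are 79.2% for Bcl2a1b and 79.5% for Bcl2a1d. The first 150 coding bases hold 7 of the 12 differing positions and are shown for the 3 copies because they hold most of the coding differences, with those positions in capitals.
Bcl2a1a: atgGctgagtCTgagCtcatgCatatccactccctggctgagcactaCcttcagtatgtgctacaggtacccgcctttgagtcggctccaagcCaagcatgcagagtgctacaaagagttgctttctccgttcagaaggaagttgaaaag
Bcl2a1b: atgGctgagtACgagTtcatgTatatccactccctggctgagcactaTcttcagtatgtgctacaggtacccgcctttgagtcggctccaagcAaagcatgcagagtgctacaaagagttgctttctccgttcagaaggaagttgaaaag
Bcl2a1d: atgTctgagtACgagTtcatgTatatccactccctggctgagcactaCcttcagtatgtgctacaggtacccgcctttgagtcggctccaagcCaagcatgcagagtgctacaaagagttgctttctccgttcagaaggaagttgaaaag

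The sum of these 3 copies, which depends less than each value on how reads were divided among them, was 1.92 and 2.85 FPKM, a log2 difference of 0.40. As a plain ratio of FPKM, the sum was 1.48 times as high at 6 months, the same as Bcl2a1b alone. The 0.40 is thus not a larger relative change than the 0.35 of Bcl2a1b. Of the 2275 expressed genes within 2-fold of the level of Bcl2a1b, 7.30% had a difference at least as large as its 0.35 in either direction. Leukocytes are the known site of A1 expression, and a list of 14 leukocyte markers was inspected beside it. In the list, 12 genes were expressed, of which 6 were higher and 6 lower at 6 months, with a median log2 difference of -0.0086 and a range from -0.29 to 0.29. The most abundant was Lyz2, a lysozyme of myeloid cells, at 293.3 and 253.7 FPKM. Ptprc, the pan-leukocyte antigen CD45, was at 1.54 and 1.65 FPKM. The T cell gene Cd3e, with a mean under 1 FPKM and so not among the 12, was at 0.370 and 0.822 FPKM. This pair was picked with the values known. The summed FPKM of the list was 501.4 at 2 months and 449.3 at 6 months. Lyz2 alone made up most of that sum at both ages, so the sum says little about the other markers. The part of leukocytes in the Bcl2a1 values was not tested, and in pooled tissue more cells of a type and more RNA per cell cannot be told apart.

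All 3 multidomain effectors were well expressed. Bax was the highest, at 70.2 and 67.7 FPKM, and held 55.9% and 56.3% of the summed effector FPKM. Bak1, its partner in opening the mitochondrial membrane, was at 24.4 and 24.6 FPKM, and Bok, a relative that acts with less restraint from pro-survival proteins, was at 30.9 and 27.9 FPKM with a log2 difference of -0.14. The sum over the pro-survival genes was 1.22 times the sum over the effectors at 2 months and 1.24 times at 6 months. Bax alone was 15.3 times as abundant as Bcl2 at 2 months and 17.8 times at 6 months, and 2.05 and 2.33 times as abundant as Bcl2l1. Ratios of transcripts do not give ratios of proteins.

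Most BH3-only genes had lower values at 6 months, although every difference was small. Of the 8 genes 7 were expressed, and 6 of these 7 were lower, with a median log2 difference of -0.14, where 53.7% of all expressed genes had a lower value. With the upper quartiles of the ages made equal, this median was -0.10 and Bad turned to a higher value at 6 months (0.018), which left 5 of the 7 lower. If a mean of 5 FPKM was required instead of 1, the BH3-only median was -0.055. Bbc3 (chromosome 7 from 16308393 to 16318205), which encodes the p53 target Puma, went from 2.53 to 1.72 FPKM, a log2 difference of -0.38. Of the 2774 expressed genes within 2-fold of its level, 5.95% had a difference of at least that size in either direction. Bmf, linked to cell death after loss of attachment, was at 5.56 and 4.42 FPKM, a log2 difference of -0.28. Pmaip1, which encodes Noxa, a p53 target that binds Mcl1, was at 4.39 and 3.83 FPKM, and Bik at 16.9 and 15.2 FPKM. Bcl2l11, which encodes Bim, was at 5.70 and 5.31 FPKM. Bad, which is held inactive by growth factor signalling, was the most abundant at 33.0 and 32.5 FPKM and made up 45.2% and 47.5% of the summed BH3-only FPKM. Bid, the substrate that links caspase-8 to mitochondria, was the exception with a higher value, 5.02 at 2 months and 5.36 FPKM at 6 months. Hrk, a BH3-only gene known from neurons, was near 0 at 0.0051 and 0.012 FPKM.

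Among the divergent Bcl2-like genes, Bcl2l13, a mitochondrial protein known as Bcl-rambo, was at 18.1 and 19.3 FPKM, and Bcl2l12 at 13.5 and 13.9 FPKM. The end of Bcl2l13 overlaps its neighbour Bid, with which it shares 8.44% of its 50-base stretches. Bcl2l14, which encodes Bcl-G, was at 4.69 and 3.96 FPKM, a log2 difference of -0.20. Bcl2l15 lay at the limit of expression with 1.04 and 0.881 FPKM.

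The genes that act downstream of mitochondria differed little. Apaf1, the scaffold of the apoptosome, was the scarcest expressed gene of that step at 2.04 and 2.08 FPKM. Xiap, the IAP that inhibits caspases directly, was at 10.9 FPKM at both ages, a log2 difference of 0.0077. Birc2 and Birc3, the ubiquitin ligases of TNF receptor signalling that lie next to each other on chromosome 9, were at 11.5 and 12.3 FPKM and at 8.35 and 8.49 FPKM. Diablo, whose product Smac is released from mitochondria to displace IAPs, was the only gene of the 5 with a lower value, 23.3 and 20.9 FPKM or -0.15 on the log2 scale.

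**Figure D3:**
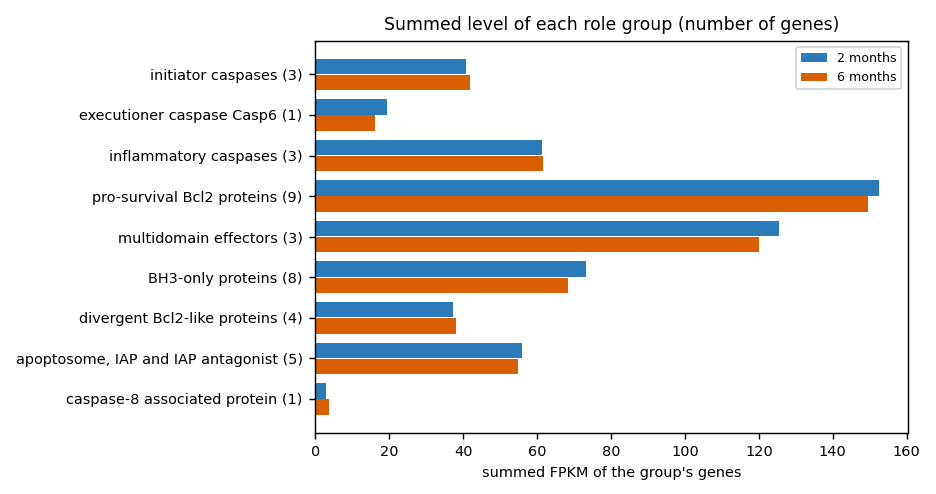
Summed FPKM of each role group at 2 months (blue) and 6 months (orange), with the number of genes in brackets and no error bars, since no values of single pools were analysed. The pro-survival sum was 152.6 at 2 months and 149.5 at 6 months, the effector sum 125.4 and 120.1, and the BH3-only sum 73.2 and 68.4.

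Summed by role, the levels at both ages were close. The ratio of the sum at 6 months to that at 2 months was 0.934 for the BH3-only genes, 0.958 for the effectors, 0.976 for the apoptosome and IAP genes, 0.979 for the pro-survival genes, 1.005 for the inflammatory caspases, 1.02 for the divergent Bcl2-like genes and 1.03 for the initiator caspases, while Casp6 and Casp8ap2, each taken alone, had ratios of 0.824 and 1.27. Casp1 made up most of the sum of the inflammatory caspases.

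Beyond the caspases and the Bcl2 family, 71 other cell death genes of 4 lists were in the table, of which 53 were expressed. On the 1.5-fold limit, 0 of the 53 were higher and 2 were lower, beside 1.05% and 1.72% of all expressed genes, shares that correspond to less than 1 gene in 53. Their median log2 difference was -0.04, and that of all expressed genes was -0.01. Death receptor genes contributed none of the 2. Their most abundant member was Tnfrsf1a, the main TNF receptor, at 74.1 and 69.1 FPKM. In the list of mitochondrial factors and execution substrates, Cidea, a lipid droplet protein first described as a relative of the apoptotic nuclease system, went from 3.48 to 0.879 FPKM, a log2 difference of -1.25. Vdac1, an outer membrane channel, was the highest of that list at 212.7 and 224.6 FPKM. The list of other IAPs and the p53 axis held no gene beyond the limit. Perp, a p53 and p63 target needed for desmosomes, was the highest there at 1465 and 1393 FPKM. Trp53 itself, which encodes p53, was at 57.3 and 51.9 FPKM, a log2 difference of -0.14, and was picked out after its value had been seen. Its part in the value of any gene described here was not tested.

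**Figure D4:**
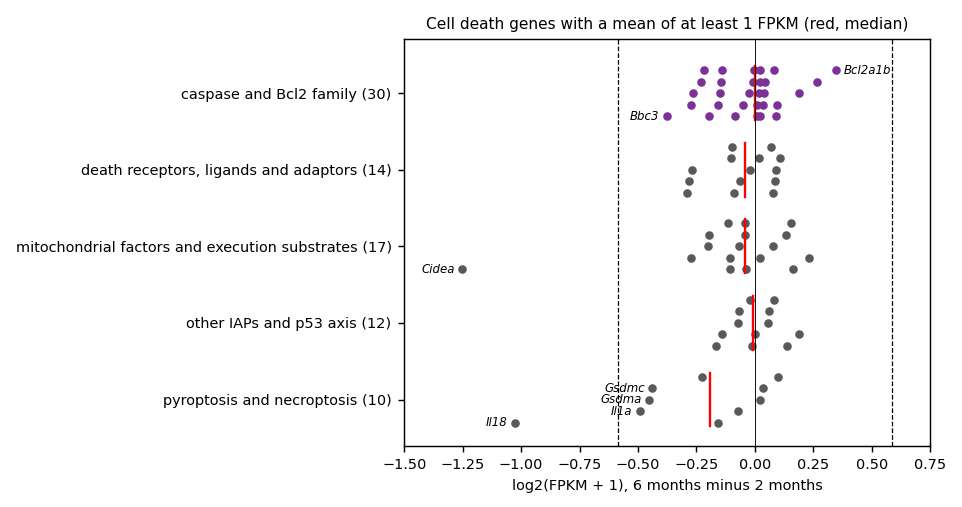
Difference of log2(FPKM + 1), 6 months minus 2 months, for the 30 expressed caspase and Bcl2 family genes (purple) and the 53 other expressed cell death genes by list (grey), with the number of genes in brackets. Each point is a gene, its height within a row has no meaning, red lines are medians, dashed lines mark 1.5-fold, and genes beyond 0.32 are named. Cidea and Il18 are the genes beyond a dashed line.

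The pyroptosis and necroptosis list includes the pathway in which Casp1 acts, pyroptosis, beside genes that do not act with it. Its counts are therefore not counts of Casp1 partners. Casp1 and a substrate of it differed in how their values at the 2 ages compared. Il18, the precursor of interleukin-18, went from 40.4 to 19.3 FPKM, a log2 difference of -1.03, while Casp1 was at 55.1 and 54.9 FPKM. Pycard, the adaptor ASC that joins Casp1 to inflammasome sensors, was the highest of the list at 110.1 and 117.9 FPKM. The next 5 genes were picked with their values known. Il1b, the other classical Casp1 substrate, was at 19.9 and 20.4 FPKM, and Gsdmd, the pore protein cut by Casp1 and Casp4, at 2.87 and 2.92 FPKM. Il1a went from 65.9 to 46.55 FPKM, Gsdma from 64.6 to 46.9 FPKM and Gsdmc from 43.7 to 32.0 FPKM, log2 differences of -0.49, -0.45 and -0.44. Of the 10 expressed genes of this list, 3 had a higher value at 6 months, namely Pycard, Il1b and Gsdmd. The other 7 had a lower value, where 53.7% of all expressed genes did, and the median log2 difference was -0.19. Markers of cornifying keratinocytes moved the same way: of the 7 genes listed and found, Casp14 among them, 6 had lower values at 6 months, the median log2 difference was -0.82 and the summed FPKM was 1808 at 2 months and 866.3 at 6 months. Their part in the Il18, Il1a and gasdermin values was not tested. Casp14, the caspase of cornification left out of the gene set, was at 7.87 and 8.30 FPKM.

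The cell type labelled in the samples was checked against markers. All 12 taste cell markers had signal and 11 were expressed, with a median log2 difference of 0.15 for the list. Of these 11, 7 had a higher and 4 a lower value at 6 months, where 53.7% of all expressed genes had a lower value. The marker with a mean under 1 FPKM was Slc1a3 (Glast), used by the paper for type I cells, at 0.710 and 0.988 FPKM. The summed FPKM of the list was 539.4 and 504.4, so the sum was lower at 6 months although the median difference was above 0. The most abundant was Krt8, a keratin of taste bud cells, at 234.3 and 196.7 FPKM. Gnat3, the taste G protein gustducin, was at 84.7 and 79.9 FPKM and was picked with its value known. The 5 basal keratinocyte markers were also high, with a summed FPKM of 4541 and 4525, so transcripts typical of the lining epithelium of the tongue were abundant beside those of taste cells. Endothelial markers were near 0, with 1.97 and 1.95 FPKM in sum. Skeletal muscle markers were low but higher at 6 months, with sums of 13.1 and 26.2 FPKM, and those of fibroblasts had sums of 43.6 and 28.7 FPKM, nearly all of it Dcn. Family transcripts cannot be assigned to any of these cell types from the table.

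The study turned on AP1 transcription factors, whose transcripts were lower at 6 months (Fos 139.7 and 37.5 FPKM, Jun 90.3 and 40.1 FPKM, Fosb 13.0 and 4.14 FPKM). The promoters of the family were therefore searched for TGANTCA, a pattern that reads the same on both strands. It is a loose form of the AP1 motif, since N stands for any base and the usual motif has C or G there. RefSeq promoters of GRCm38.p6, from 250 bases before to 50 bases after a transcript start, were at hand for 34 of the 37 genes, with 47 promoters. This loose pattern was found in 3 of the 47 (6.38%), beside 7.81% of all 32851 promoters. These 3 were the promoters of Bcl2a1a, Bcl2a1b and Bcl2a1d, which are copies of each other, and they are shown with 40 bases before and 33 bases after the match in capitals. All 3 matches read TGAATCA, with A in the middle, so none of them is the usual AP1 motif. A match of letters does not show a binding site, and a promoter without one may still be reached by AP1 elsewhere. Their windows lie on chromosome 9 at chr9:88956760-88956839 (plus strand), chr9:89199069-89199148 (plus strand) and chr9:88731925-88732004 (minus strand) of GRCm38.p6, in the order printed.
Bcl2a1a: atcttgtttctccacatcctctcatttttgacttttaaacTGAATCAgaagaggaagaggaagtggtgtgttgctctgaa
Bcl2a1b: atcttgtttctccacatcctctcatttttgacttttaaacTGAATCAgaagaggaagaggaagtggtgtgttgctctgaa
Bcl2a1d: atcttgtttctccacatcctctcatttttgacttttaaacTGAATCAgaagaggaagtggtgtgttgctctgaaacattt

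The first base of the match lay 120, 164 and 114 bases before the RefSeq start of Bcl2a1a, Bcl2a1b and Bcl2a1d, which is not the same base as the GENCODE start given above. The other 31 genes with a promoter at hand, Bbc3 and Casp6 among them, held no match to the loose pattern in these windows.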

How the data were processed

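Total RNA of pooled taste cells was polyA selected and made into TruSeq libraries. According to their methods, the authors aligned reads to GRCm38/mm10 by TopHat (TopHat2 2.0.7 in the submitters' processing notes) with RefSeq gene models, and the deposited FPKM values were computed with Cufflinks 2.1.1 and Cuffdiff, 1 per gene and age. The library normalization is not given in the sources used here. The 6 month column was identified by its letter, which is that of the sample titles. The table also holds a p-value of the authors' own comparison for each gene, which was not used. No test was possible from the remaining values, so a gene was counted past a limit of 1.5-fold on the log2(FPKM + 1) scale, with a mean of at least 1 FPKM required. The calculation of differences and counts, not the choice of limit, was tested on simulated data. Of the 39 genes that the rule takes, 2 are not reported here and enter no count of the family. The genes and lists were chosen with earlier results of these data known. Every other expressed gene of the rule is given by value. From the pathway lists, genes past the limit and the most abundant of each list are named, and any other gene of a pathway or marker list was picked after its value was seen. Positions, exons and shared 50-base stretches come from GENCODE annotation of GRCm38, in which all 37 genes were found by symbol. The TruSeq kit is not stated to keep strand, so reads of overlapping genes cannot be separated, and over 10% of the 50-base stretches were shared with another gene for 10 of the 37 genes, among them Bax (13.8%), Bak1 (18.2%), Bcl2l2 (12.8%) and Diablo (15.3%). Alternatives were a pseudocount of 0.1, all genes with any signal, a required mean of 5 FPKM, limits of 0.32 on the log2 scale and of 2-fold, and scaling of 6 month values by 1.03 to equal upper quartiles. Python 3.11.15, numpy 2.4.6, pandas 2.3.3 and matplotlib 3.10.9 were used.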

Additional observations from a re-analysis of the deposited data

How the results depend on the processing

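No paired analysis was possible because each age has a single value per gene, and for the same reason no replicate was left out. The count of family genes past the limit was 0 in each direction with a pseudocount of 0.1, with equal upper quartiles, with genes of any level counted, with 5 FPKM required and at 2-fold. At a limit of 0.32 on the log2 scale it was 1 higher and 1 lower, beside 2.95% and 4.23% of all expressed genes. The count of other cell death genes that were lower went from 2 to 5 of the 53 at that limit, beside the same 4.23%. With 5 FPKM required it was 1, since Cidea is then not counted, and with genes of any level it was 3, the third being Gsdmc2, a gasdermin at 1.74 FPKM at 2 months and 0.159 FPKM at 6 months (-1.24). With a pseudocount of 0.1 the differences of the 30 expressed genes ranged from -0.53 (Bbc3) to 0.53 (Bcl2a1b), and 0 changed sign. With equal upper quartiles they ranged from -0.35 to 0.38, and 3 changed sign, all of them within 0.024 of 0 before. Medians of the family and of each role group moved by less than 0.1 under every alternative that was run. Without values of single pools, the error of each value is unknown, and a difference of a weakly expressed gene such as Bbc3 or Bcl2a1b cannot be told apart from the spread between pools.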
